A study of Mus musculus with 7 samples.

Results

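The genes described here are 35 genes of glycolysis and pyruvate metabolism, of 48440 genes in the deposited table. They were chosen by name, as the genes whose symbol is on a list of glucose importers, glycolytic enzymes, lactate dehydrogenases, pyruvate dehydrogenase subunits and their kinases, mitochondrial pyruvate carriers and monocarboxylate transporters. All 35 were found, and all 35 passed the minimum mean of 10 normalized counts.

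PROSER1 is a protein that interacts with the TET enzymes, and the study compared the RNA of blood-forming progenitors with and without it. LSK cells (lineage marker-negative, Sca1+ and cKit+) are the fraction of bone marrow (BM) in which hematopoietic stem cells (HSCs) and early progenitors are found. They were sorted from lethally irradiated C57BL/6 mice (9.5 Gy) on day 77 after these mice had received unfractionated BM. Polyadenylated RNA was sequenced from both ends, with 4 libraries of wild-type and 3 of PROSER1 KO cells.

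In the wild-type group the donor BM was wild-type, and in the PROSER1 KO group the donors carried a constitutive endonuclease-made KO of PROSER1 in every cell of the body. Irradiation, transplantation and the day of harvest were shared by both groups, and the ages of donors and recipients are not given in the sources used here. Whether the sort for RNA selected donor cells is not given either, so that remaining LSK cells of the recipient cannot be told apart from donor cells. The labels call the libraries of a group biological replicates. The depth on genes was 33143619 to 42742329 read pairs for wild-type and 37140168 to 45140743 for PROSER1 KO.

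Glycolysis splits glucose into pyruvate and yields ATP without oxygen. Pyruvate is then reduced to lactate, which leaves the cell through monocarboxylate transporters, or enters mitochondria, where the pyruvate dehydrogenase complex makes acetyl-CoA from it. Long-term HSCs in BM are known for high glycolytic activity and for pyruvate dehydrogenase kinases that restrain the entry of pyruvate into mitochondrial oxidation.

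Proser1 itself (ENSMUSG00000049504, chr3:53463666-53481755, GRCm38, forward strand) was read first. Its normalized counts, here and below in the order of the replicate numbers, were 2019, 2153, 2103 and 2077 in the wild-type libraries. They were 2464, 2359 and 2338 in the PROSER1 KO libraries. Every PROSER1 KO library lay above every wild-type library, by a log2 fold change of 0.19 (limma standard error 0.049, adjusted p = 0.204). A two-sided exact permutation test of the log2 values gave p = 0.0571, computed by doubling the smaller one-sided p, and this is the smallest p that this way of computing it allows with the 35 arrangements of 4 and 3 libraries. The transcript was thus not lower in the libraries labelled PROSER1 KO, and its level does not check the KO, because the position of the edit within the gene is not given in the sources used here.

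The LSK label was compared with its markers. Kit and Ly6a (Sca1), which define the gate, were at 29183 ± 2811 and 5243 ± 1177 normalized counts in the wild-type group (SD, n = 4) and at 27815 ± 2101 and 4705 ± 884 in the PROSER1 KO group (SD, n = 3). All 10 LSK and stem cell markers were tested and none was at 0 in every library. Limma, edgeR and DESeq2 called 0 of the 10, and 1 (Mecom) had an unadjusted p under 0.05. The summed level of 11 plasma cell genes, led by Ighm, was 2614269, 2151983, 1549330.4 and 3771868 in the wild-type libraries against 2102035, 1729997 and 2675005 in the PROSER1 KO libraries. None of the 11 was at 0 in every library, and the ranges of both groups overlapped. The part of this RNA in the values that follow was not tested. In bulk RNA, fewer cells of a type and less RNA per cell cannot be told apart.

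Limma called 0 of 35 at an adjusted p under 0.05 and a fold change over 1.5, beside 0.258% of the 16251 genes tested (42 genes, 20 higher and 22 lower in PROSER1 KO; 23 without PROSER1 KO replicate 2). DESeq2 on recovered read pairs also called 0 of 35, beside 0.873% of its genes, and edgeR called 0 of 35, beside 40 of 16251 genes. The lowest adjusted p among the 35 was 0.309 by limma, 0.33 by edgeR and 0.118 by DESeq2, each for Aldoa. At an unadjusted limma p under 0.05 there were 2 of 35 (Aldoa and Ldhb), beside 9.73% of all genes tested. The same count was 2 by edgeR and 3 by DESeq2. By limma it was 1 without PROSER1 KO replicate 1 or 3, and 4 without PROSER1 KO replicate 2, wild-type replicate 3 or wild-type replicate 4. The share of all genes at this p is given only for limma with all libraries. The counts of the other tools and of the fits with a library left out therefore cannot be read against such a share.

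The median log2 fold change of the 35 was -0.02, beside 0.00 for all genes tested, with 14 values above 0 and 21 below (16 and 19 with TMM, 15 and 20 with quantile normalization, counts compared after seeing the data). Without wild-type replicate 4 there were 9 above 0 and 26 below, and with the other libraries left out 1 at a time the count above 0 ran from 11 (without PROSER1 KO replicate 2) to 17 (without PROSER1 KO replicate 3). In 24 of 35 genes the log2 fold change was under 0.1 in size. The 95% interval of the fold change lay within 1.5-fold either way for 31 of 35 genes (88.6%), beside 65.7% of all genes tested. Among genes with a mean of at least 1000 normalized counts this share was higher, at 26 of 26, beside 96.6% of all such genes. This comparison was added after the values were seen. The 4 genes with a wider interval were Pfkfb1, Aldoc, Eno2 and Pdk4, whose means over the 7 libraries ran from 24.7 to 306 normalized counts.

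**Figure D1:**
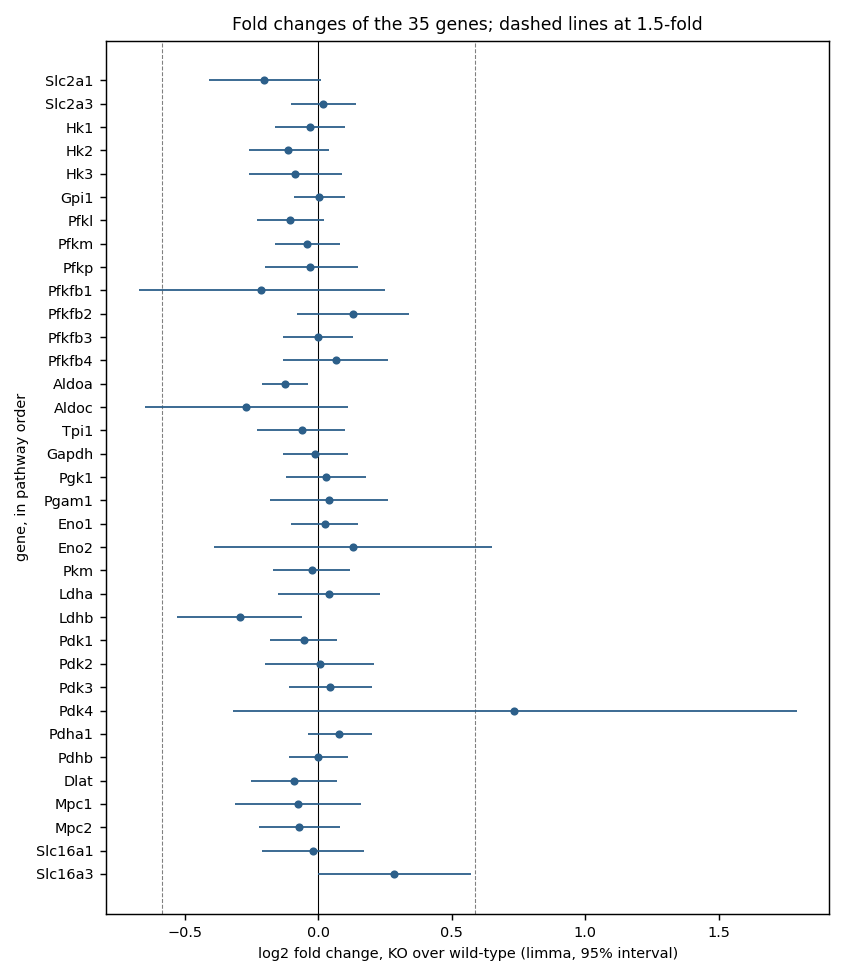
Log2 fold change of each of the 35 genes (horizontal axis, PROSER1 KO over wild-type, limma with 95% interval) in pathway order, with dashed lines at 1.5-fold. The intervals of 31 genes lie between the dashed lines, and the widest is that of Pdk4, from -0.32 to 1.79.

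The single libraries were compared next. In 1 of 35 genes (Slc16a3) every PROSER1 KO library lay above every wild-type library, beside 5.17% of all genes tested. In 1 of 35 (Aldoa) every PROSER1 KO library lay below, beside 4.83%. In the other 33 genes the groups overlapped. Without PROSER1 KO replicate 2 the groups did not overlap for 10 of 35 genes (28.6%), beside 19.4% of all genes tested, with 3 higher and 7 lower. Without wild-type replicate 4 this count was 4 of 35 (11.4%), beside 15.4% of all genes tested. Without PROSER1 KO replicate 1 it was also 4 of 35, beside 19% of all genes tested.

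**Figure D2:**
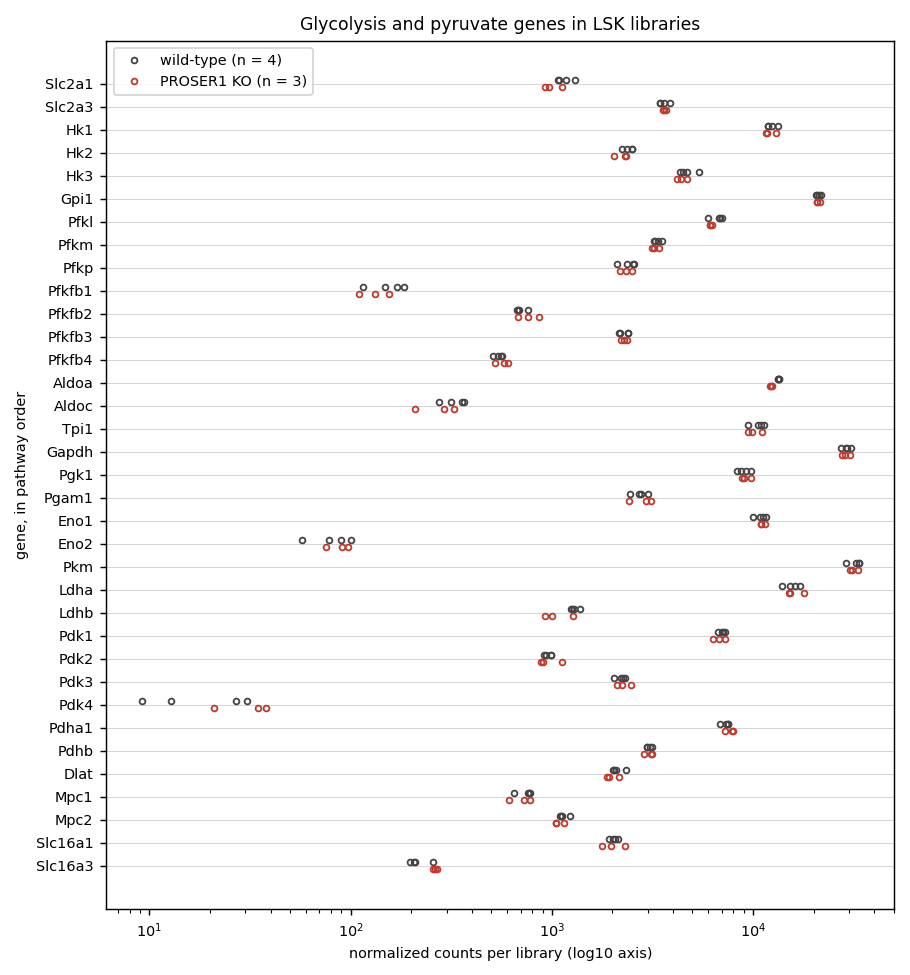
Normalized counts of the 35 genes in each library (horizontal log10 axis), with wild-type libraries in gray (n = 4) and PROSER1 KO libraries in red (n = 3). Levels span from 9.2 for Pdk4 in wild-type replicate 3 to 33484 for Pkm in the same library, and the points of both groups overlap in 33 genes.

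The summed level of the genes was compared between libraries. The 35 genes together held 0.542%, 0.57%, 0.578% and 0.493% of all normalized counts in the wild-type libraries. In the PROSER1 KO libraries they held 0.532%, 0.576% and 0.523%. The group means were 0.546% ± 0.0384 (SD, n = 4) and 0.544% ± 0.0284 (SD, n = 3), and the ranges overlapped.

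Of the 35 genes, 28, 26 and 25 stood above their own mean over the 7 libraries in wild-type replicate 2, wild-type replicate 3 and PROSER1 KO replicate 2. In wild-type replicate 4, PROSER1 KO replicate 1 and PROSER1 KO replicate 3 this count was 9, 9 and 11. High and low libraries were thus found in both groups. Immunoglobulin genes took 12% of all counts in wild-type replicate 4, where the glycolysis genes had their lowest share, and 5.15% in wild-type replicate 3, where they had their highest. The part of immunoglobulin RNA in these shares was not tested.

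Glucose enters the cell through Slc2a1 (GLUT1) and Slc2a3 (GLUT3). Slc2a1 (ENSMUSG00000028645, chr4:119108711-119137983, GRCm38, forward strand) had 1170.3, 1304, 1091 and 1077 normalized counts in the wild-type libraries against 923, 1129 and 972 in the PROSER1 KO libraries. PROSER1 KO replicate 2 lay inside the wild-type range and the other PROSER1 KO libraries lay under it. The log2 fold change was -0.20 (standard error 0.093, 95% interval -0.41 to 0.01, limma adjusted p = 0.523).

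Slc2a3 was the more abundant importer per kb of exon. Its share of the family's normalized counts per kb was 60.0% ± 1.32 in the wild-type group (SD, n = 4) and 63.6% ± 2.37 in the PROSER1 KO group (SD, n = 3). PROSER1 KO replicate 2, at 60.9%, overlapped the wild-type libraries, which ranged from 58.8% to 61.5%. Slc2a3 had 3447, 3871, 3595 and 3438 normalized counts in the wild-type libraries against 3583, 3632 and 3675 in the PROSER1 KO libraries, all inside the wild-type range (limma log2 fold change 0.02, standard error 0.053).

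Hexokinases trap glucose in the cell by phosphorylation. Hk1 held 46.3% ± 0.738 of the family per kb in the wild-type group (SD, n = 4) and 47.4% ± 1.98 in the PROSER1 KO group (SD, n = 3). Hk3 held 40.8% and 40.2%, and Hk2, an isoform bound to mitochondria and often induced in growing cells, held 12.9% and 12.4%. Hk1 had 11909, 12428, 13293 and 11881 normalized counts in the wild-type libraries against 11611, 12973 and 11788 in the PROSER1 KO libraries. The 3 log2 fold changes were -0.03 for Hk1, -0.11 for Hk2 and -0.09 for Hk3, with limma adjusted p from 0.621 to 0.914.

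Gpi1, which turns the glucose phosphate into its fructose isomer, varied little between libraries, with a coefficient of variation of 2.49% in the wild-type group beside a median of 5.83% over the 35 genes. It had 20795, 21188, 21678 and 20463 normalized counts in the wild-type libraries against 20797, 21479.8 and 20909.6 in the PROSER1 KO libraries. All PROSER1 KO values lay inside the wild-type range. The 95% interval of its log2 fold change ran from -0.09 to 0.10.

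Phosphofructokinase-1, the committed step of glycolysis, was represented by Pfkl, Pfkm and Pfkp. Per kb of exon, Pfkm held 46.1% ± 1.37 and Pfkl 45.7% ± 1.38 in the wild-type group (SD, n = 4), which did not differ beyond their spread. In the PROSER1 KO group the shares were 47.0% ± 0.905 and 44.6% ± 0.183 (SD, n = 3). Pfkl, not Pfkm, had the larger share when the length of the longest transcript was used (55.3% against 36.1% in the wild-type group). Pfkm had 3218, 3550, 3369 and 3259 normalized counts in the wild-type libraries against 3150.4, 3396 and 3211 in the PROSER1 KO libraries.

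The 4 PFKFB genes encode enzymes that make and remove the activator of phosphofructokinase-1. Pfkfb3 held 55.1% ± 1.8 of the family per kb in the wild-type group (SD, n = 4) and 54.2% ± 1.64 in the PROSER1 KO group (SD, n = 3). It had 2193, 2395, 2403 and 2157 normalized counts in the wild-type libraries against 2287, 2203 and 2361 in the PROSER1 KO libraries, all inside the wild-type range in PROSER1 KO. Pfkfb1, Pfkfb2 and Pfkfb4 were lower per kb, and their log2 fold changes were -0.21, 0.13 and 0.07. The interval of Pfkfb1 reached from -0.67 to 0.25, which includes a 1.5-fold difference, at a depth of 110.4 to 185 normalized counts.

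Aldolase cleaves the fructose bisphosphate. The promoters of Aldoa, Slc16a3 and both lactate dehydrogenase genes are shown where each is described, because the groups did not overlap for their levels or their share, and the core of the hypoxia response element is a known feature of glycolysis genes. RefSeq promoters (GRCm38.p6) matched 34 of the 35 genes, all but Slc2a3, with 54 start sites. Each line gives the 250 bases before a start, 5' to 3' on the strand of the gene, with capitals for ACGTG or GCGTG on either strand (CACGT and CACGC on the other), and for genes with several starts the start with the most matches (the more upstream of equal ones), chosen after the sequences were seen. The line for Aldoa is chr7:126799255-126799504, reverse strand, with 1 match, which the window of a start further downstream shares; the window of 1 other Aldoa start has none.
Aldoa: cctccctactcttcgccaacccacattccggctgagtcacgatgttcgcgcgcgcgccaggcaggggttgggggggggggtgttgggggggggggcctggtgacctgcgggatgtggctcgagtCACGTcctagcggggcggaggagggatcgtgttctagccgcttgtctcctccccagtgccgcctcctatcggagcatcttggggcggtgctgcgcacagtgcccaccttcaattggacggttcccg

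Aldoa (ENSMUSG00000030695, chr7:126795234-126800751, GRCm38, reverse strand) had 13478, 13525, 13348 and 13275 normalized counts in the wild-type libraries against 12327, 12377 and 12214 in the PROSER1 KO libraries. Both groups were narrow, at 13406 ± 115 (SD, n = 4) and 12306 ± 83.6 (SD, n = 3), and did not overlap. The log2 fold change was -0.12 (standard error 0.037, 95% interval -0.21 to -0.04, limma adjusted p = 0.309), a fold of 0.918 that did not pass over all genes tested. Across the settings tried, the estimate ranged from -0.13 to -0.11 with adjusted p from 0.118 to 0.573.

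Aldoa held 97.9% ± 0.284 of aldolase per kb in the wild-type group (SD, n = 4) and 98.0% ± 0.413 in the PROSER1 KO group (SD, n = 3). Aldoc, the other isoform, had a log2 fold change of -0.27 with an interval from -0.65 to 0.11.

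The triose steps were read from Tpi1, Gapdh, Pgk1 and Pgam1, which carry the triose phosphates to phosphoglycerate. Per kb of exon, Gapdh had the highest level of the 35 genes, at 7044 ± 322 normalized counts per kb in the wild-type group (SD, n = 4) and 6980 in the PROSER1 KO group. Pkm came next, at 6426 ± 422 (SD, n = 4), and the distance between these neighbours was smaller than their SDs together. Per kb of the longest transcript, a comparison added after seeing the data, Pkm was highest, at 13215 ± 867 (SD, n = 4), and the next 3, Gapdh at 8851 ± 405, Aldoa at 8655 ± 74.4 and Ldha at 8609 ± 765 (SD, n = 4), did not differ beyond their spread. The log2 fold changes were -0.06 for Tpi1, -0.01 for Gapdh, 0.03 for Pgk1 and 0.04 for Pgam1. In all 4 genes the groups overlapped.

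Enolase makes phosphoenolpyruvate. Eno1 held 99.2% ± 0.192 of enolase per kb in the wild-type group (SD, n = 4) and 99.1% ± 0.0947 in the PROSER1 KO group (SD, n = 3), and the rest was Eno2. Eno1 had 10876, 11596, 11276 and 10042 normalized counts in the wild-type libraries against 10905, 11522 and 10974 in the PROSER1 KO libraries. All 3 PROSER1 KO libraries lay inside the wild-type range. Pkm, the pyruvate kinase, had a log2 fold change of -0.02 with an interval from -0.17 to 0.12.

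Lactate dehydrogenase has an A subunit (Ldha) that favours lactate and a B subunit (Ldhb) that favours pyruvate. The Ldha promoter shown (chr7:46845554-46845803, forward strand) holds 5 matches, and the window of the other Ldha start holds 1. The promoter of Ldhb (chr6:142507958-142508207, reverse strand) holds 1.
Ldha: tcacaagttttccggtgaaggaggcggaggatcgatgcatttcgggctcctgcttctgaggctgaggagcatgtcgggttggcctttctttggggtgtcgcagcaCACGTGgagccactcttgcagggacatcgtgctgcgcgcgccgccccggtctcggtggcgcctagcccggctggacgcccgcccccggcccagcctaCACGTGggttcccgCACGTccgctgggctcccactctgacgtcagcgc
Ldhb: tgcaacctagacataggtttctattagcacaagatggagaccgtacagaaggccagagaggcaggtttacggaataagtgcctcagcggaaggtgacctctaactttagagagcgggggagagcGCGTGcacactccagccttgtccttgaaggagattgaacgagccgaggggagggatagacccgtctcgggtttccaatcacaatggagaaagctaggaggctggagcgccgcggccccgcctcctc

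Ldhb (ENSMUSG00000030246, chr6:142490249-142507957, GRCm38, reverse strand) had 1249, 1285, 1259 and 1377 normalized counts in the wild-type libraries against 920.1, 1272 and 1003 in the PROSER1 KO libraries. PROSER1 KO replicates 1 and 3 lay under all wild-type libraries, and PROSER1 KO replicate 2 lay among them. The log2 fold change was -0.29 (standard error 0.104, 95% interval -0.53 to -0.06, limma adjusted p = 0.396). It depended on the PROSER1 KO libraries used, being -0.43 without PROSER1 KO replicate 2 (adjusted p = 0.111) and -0.19 without PROSER1 KO replicate 1 (adjusted p = 0.599). Adjusted p ranged from 0.111 to 0.634 across the settings tried.

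Ldha had 16265, 17091, 15286 and 13860.2 normalized counts in the wild-type libraries against 15271, 17848 and 15081 in the PROSER1 KO libraries, with overlapping groups. Its share of lactate dehydrogenase per kb was 86.1%, 86.3%, 85.2% and 82.7% in the wild-type libraries against 88.7%, 86.9% and 87.7% in the PROSER1 KO libraries. The share was the only one among the 9 paralog families in which the groups did not overlap, and it was not tested. As single genes, 5.17% of all genes tested were higher in PROSER1 KO without overlap, and 4.83% were lower in this way. Shares of gene families outside the 9 are not given here. How often a family's share separates the groups by chance therefore cannot be read from these values. The highest wild-type and lowest PROSER1 KO shares lay at 86.3% and 86.9%.

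**Figure D3:**
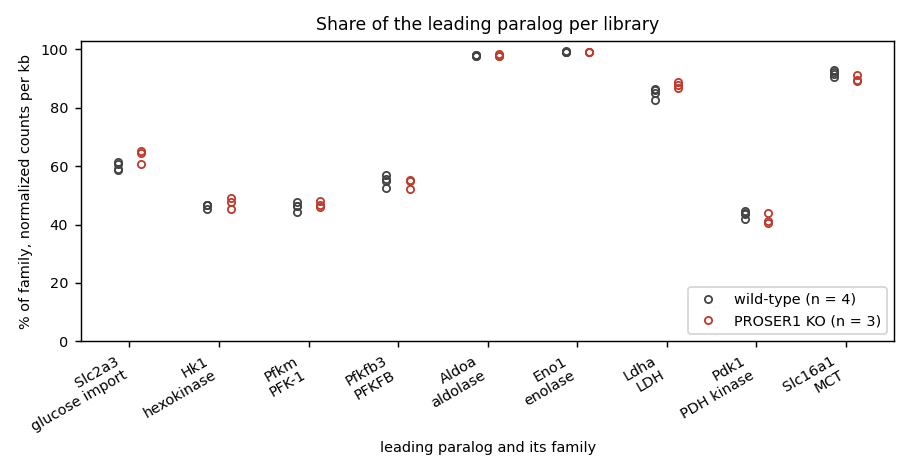
Share of the leading paralog of each of 9 families (vertical axis, percent of the family's normalized counts per kb of exon) in wild-type (gray, n = 4) and PROSER1 KO (red, n = 3) libraries. Aldoa and Eno1 hold over 97% of their families in every library, and Ldha holds 82.7% to 86.3% in wild-type and 86.9% to 88.7% in PROSER1 KO libraries.

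Pyruvate dehydrogenase kinases inactivate the pyruvate dehydrogenase complex. Pdk1 and Pdk3 held 43.5% ± 1.16 and 41.6% ± 1.48 of the family per kb in the wild-type group (SD, n = 4), and 42.0% ± 1.79 and 42.9% ± 3.4 in the PROSER1 KO group (SD, n = 3). Pdk1 had 6980.3, 7241, 6728 and 7135 normalized counts in the wild-type libraries against 7265, 6759 and 6315 in the PROSER1 KO libraries, with overlapping groups. The log2 fold changes of Pdk1, Pdk2 and Pdk3 were -0.05, 0.01 and 0.04.

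Pdk4, a kinase known to rise on fasting and with fatty acid use, was near the detection limit. It had 26.9, 30.6, 9.2 and 12.8 normalized counts in the wild-type libraries against 20.9, 38.1 and 34.6 in the PROSER1 KO libraries, where 3 read pairs are worth 2.54 to 3.48 normalized counts. The groups overlapped. Its log2 fold change of 0.73 was the largest of the 35, with a standard error of 0.471 and a limma adjusted p of 0.658, and the interval ran from -0.32 to 1.79.

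The pyruvate dehydrogenase complex was measured through Pdha1, Pdhb and Dlat, which encode parts of its E1 and E2 enzymes. Their log2 fold changes were 0.08, -0.00 and -0.09, with limma adjusted p from 0.682 to 0.998. Mpc1 and Mpc2, which together form the carrier that brings pyruvate into mitochondria, both had -0.07. In all 5 genes the groups overlapped.

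Slc16a1 (MCT1) and Slc16a3 (MCT4) move lactate and pyruvate across the plasma membrane, and Slc16a3 is known for lactate export from glycolytic cells. The promoter of Slc16a3 (chr11:120948817-120949066, forward strand) holds 2 matches.
Slc16a3: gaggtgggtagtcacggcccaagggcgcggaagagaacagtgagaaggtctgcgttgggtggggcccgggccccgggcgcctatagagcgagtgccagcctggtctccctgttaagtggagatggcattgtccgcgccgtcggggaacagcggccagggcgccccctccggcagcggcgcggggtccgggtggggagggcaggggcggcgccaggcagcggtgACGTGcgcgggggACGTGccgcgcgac

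Slc16a3 (ENSMUSG00000025161, chr11:120948480-120960868, GRCm38, forward strand) had 206, 210.0, 256 and 197 normalized counts in the wild-type libraries against 258, 262 and 269.8 in the PROSER1 KO libraries. The groups did not overlap, but wild-type replicate 3 lay next to PROSER1 KO replicate 1, and with quantile normalization the groups overlapped. The log2 fold change was 0.28 (standard error 0.128, limma adjusted p = 0.519) and the 95% interval of the fold ran from 0.997 to 1.48. Adjusted p ranged from 0.366 to 0.721 across the settings tried.

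Slc16a1 was the main transporter, with 91.8% ± 0.943 of the pair per kb in the wild-type group (SD, n = 4) and 90.1% ± 1.09 in the PROSER1 KO group (SD, n = 3). It had 2013, 1927, 2059 and 2132 normalized counts in the wild-type libraries against 1786, 2304 and 1962 in the PROSER1 KO libraries. PROSER1 KO replicate 1 lay under the wild-type range, replicate 2 above it and replicate 3 inside it.

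**Figure D4:**
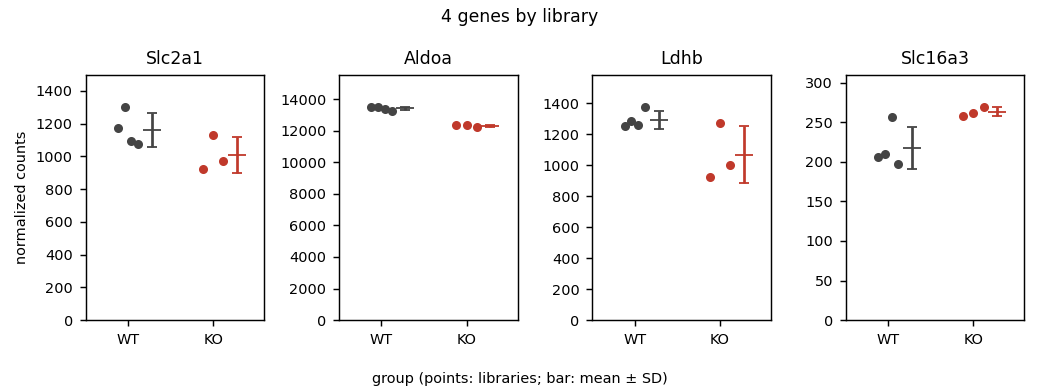
Normalized counts (vertical axes from 0) of Slc2a1, Aldoa, Ldhb and Slc16a3 in each library, with the mean and SD of the wild-type (gray, n = 4) and PROSER1 KO (red, n = 3) groups. The groups do not overlap for Aldoa (13275 to 13525 against 12214 to 12377) and Slc16a3 (197 to 256 against 258 to 269.8), and PROSER1 KO replicate 2 lies within the wild-type range for Slc2a1 and Ldhb.

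Part of these genes have near-identical copies, so that reads may be split between them. With at least 95% identity over at least 150 bases, Gapdh had 79 copies, Pgk1 and Ldha 4 each, Eno1 3 and Mpc1 2. Gpi1, Tpi1, Pgam1, Pkm, Ldhb and Pdhb had 1 each. The copies counted in the table held 0.934% of the mean level of Gapdh and 9.46% of that of Mpc1. Reads that matched a gene and its copy equally may have been counted for neither, and their number was not measured, so that the levels of these genes are uncertain. Whether the counting used strand is not given in the sources used here, so that reads on exons shared with a gene on the other strand cannot be assigned. The largest such shares of exon length among the 35 genes were 23.1% for Mpc1 with 4930506C21Rik, 16.1% for Pdha1 with Map3k15, 11.5% for Gpi1 with Gm26762 and 5.58% for Pfkp with Pitrm1. Exons shared with a gene on the same strand are not separated by any strand setting. They made up 17.4% of exon length for Pfkfb2 with Gm29427, 15.3% for Pkm with Gm49759 and 10.2% for Pfkm with Gm26513.

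In windows of 300 bases (250 before to 50 after a start), ACGTG was present on either strand in 42.6% of the 54 promoters of the glycolysis genes, beside 19.6% of all 32851 promoters. GCGTG was present in 53.7%, beside 32.4%. The E-box CACGTG, which reads ACGTG on both strands, was present in 11.1%, beside 7.15%, and the Ldha promoter shown has it at 2 places. Promoters of the same gene can overlap. Counted by gene, ACGTG was present in 19 of 34 genes (55.9%), beside 21.8% of all genes with a promoter. A match is a description of the letters only.

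The other genes around the pathway were read from lists, whose counts at an unadjusted limma p under 0.05 stand beside 9.73% of all genes tested. Among 31 remaining glycolysis and pyruvate genes, 28 were tested and limma called 0 (4 at an unadjusted p under 0.05; 1 gene at 0 in every library), with a median log2 fold change of -0.06 (from -0.08 without PROSER1 KO replicate 3 to -0.02 without PROSER1 KO replicate 1). The extremes were Fbp1, a gluconeogenic phosphatase, at -0.35 (limma adjusted p = 0.432), and Pklr, the liver and red cell pyruvate kinase, at 0.86 (limma adjusted p = 0.366). Pklr had 46.2, 63.1, 36.8 and 76.5 normalized counts in the wild-type libraries against 125, 88.9 and 85.4 in the PROSER1 KO libraries, without overlap, the 1 of 28 genes higher in this way, beside 5.17% of all genes tested. In 3 other genes of this list (Fbp1, Bpgm and G6pc3, the last 2 named after their values were seen) every PROSER1 KO library lay below every wild-type library, with log2 fold changes of -0.35, -0.17 and -0.12, beside 4.83% of all genes tested that were lower in this way.

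Of 11 pentose phosphate genes and 18 TCA cycle genes limma called 0 (1 and 0 at an unadjusted p under 0.05), with medians of -0.02 and -0.03. With a library left out these medians lay on both sides of 0 for the pentose phosphate genes, from -0.05 without PROSER1 KO replicate 2 to 0.03 without PROSER1 KO replicate 3, and for the TCA cycle genes they ran from -0.06 without PROSER1 KO replicate 2 to -0.00 without PROSER1 KO replicate 1. Log2 fold changes ran from -0.30 for Shpk to 0.05 for Prps2 in the pentose phosphate list and from -0.08 for Idh2 to 0.09 for Fh1 in the TCA cycle list. The 95% interval lay within 1.5-fold either way for 11 of 11 and 18 of 18 of these genes. Among 13 regulators of glycolytic transcription limma called 0 (1 at an unadjusted p under 0.05, median -0.05), and the extremes were Epas1 (-0.39) and Txnip (0.18). Without PROSER1 KO replicate 2 this median was -0.02, and without wild-type replicate 1 it was -0.03. Among 13 hypoxia-response genes outside glycolysis 12 were tested and limma called 0 (2 at an unadjusted p under 0.05, median 0.05), and the extremes were Vegfa (-0.32) and P4ha2 (0.31). This median was below 0 without wild-type replicate 1 (-0.03), wild-type replicate 4 (-0.02), PROSER1 KO replicate 2 (-0.03) or PROSER1 KO replicate 3 (-0.05). It was also below 0 with a minimum mean of 50 (-0.03), and it was 0.01 without wild-type replicate 3. The replicate block (-0.02) takes no fold change from wild-type replicate 4 and repeats the value without that library. In 2 of the 12 hypoxia-response genes every PROSER1 KO library lay above every wild-type library, beside 5.17% of all genes tested. They were Bnip3l (0.14) and Kdm3a (0.16), named after their values were seen. Every PROSER1 KO library lay below in 1 of 13 regulators and 1 of 11 pentose phosphate genes, beside 4.83% of all genes tested. Of 7 germ cell paralogs of glycolysis 2 passed the filter and limma called 0 (0 at an unadjusted p under 0.05), Aldoart1 at -0.49 and Ldhal6b at -0.20. Their median, -0.35 with all libraries, was -0.68 without PROSER1 KO replicate 1, -0.20 without wild-type replicate 4 and -0.01 without PROSER1 KO replicate 2, and in each of the last 2 settings 1 of the genes was above 0. Pgk2 and Pdha2 were at 0 in every library.

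Of 20 proliferation genes 0 were called by limma, 6 of 20 had an unadjusted p under 0.05, beside 9.73% of all genes tested, and all 20 log2 fold changes were above 0, from 0.12 for Cdc20 to 0.32 for Nusap1, with a median of 0.20. In a comparison of settings added after seeing the data, all 20 were also above 0 with TMM and with quantile normalization, and the median was 0.12 without PROSER1 KO replicate 2, 0.27 without wild-type replicate 3 and 0.30 without PROSER1 KO replicate 1. Their summed level, led by Mki67, was 76471, 76987, 93697 and 78702 in the wild-type libraries against 80402, 101653 and 97699.8 in the PROSER1 KO libraries. Wild-type replicate 3 lay among the PROSER1 KO libraries. The shares of the 35 glycolysis genes did not follow this order in every library: wild-type replicate 3 and PROSER1 KO replicate 2 had 0.578% and 0.576%, but PROSER1 KO replicate 3 had 0.523%, and wild-type replicate 2, with a low proliferation sum, had 0.57%. The part of proliferation in those shares was not tested.

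Limma and edgeR called 0 markers of other cells, and DESeq2 called 1 (Mcpt8, adjusted p = 0.0414). By limma the adjusted p of Mcpt8 was 0.28, and its fold change is not given here. The summed level of 6 megakaryocyte genes, led by Itga2b, was 8076, 8906, 7062 and 7949 in the wild-type libraries against 12026, 9558 and 9238 in the PROSER1 KO libraries, without overlap and with 0 genes at 0 in every library. Taken singly, the groups overlapped for all 6 genes. All 6 log2 fold changes were above 0, from 0.06 for Gp9 to 0.66 for Vwf, also with TMM and quantile normalization, with a median of 0.36. Without PROSER1 KO replicate 1, 4 of the 6 were above 0, with a median of 0.18, and without PROSER1 KO replicate 3 the median was 0.61. At an unadjusted p under 0.05 there was 1 of 6, beside 9.73% of all genes tested. Their part in the values of the glycolysis genes was not tested. The extremes of the other lists were Mecom (-0.25) and Slamf1 (0.28) for LSK and stem cells and Ctsg (-0.44) and Csf1r (0.47) for granulocytes and monocytes. For the 8 erythroid markers tested, the median log2 fold change had no stable sign, at 0.05 with all libraries, -0.13 without PROSER1 KO replicate 1, 0.24 without PROSER1 KO replicate 3 and 0.39 without PROSER1 KO replicate 2. It was 0.00, 0.08 and 0.14 without wild-type replicates 1, 2 and 4. The extremes were Ms4a1 (-0.61) and Igll1 (1.58) for B-lineage cells, Ighm (-0.56) and Igha (1.10) for plasma cells, and Ncr1 (-0.86) and Cd3g (1.61) for T, NK and innate lymphoid cells. They were Mcpt4 (-1.58) and Cpa3 (0.23) for mast cells and basophils, Adgre1 (-0.52) and C1qa (0.94) for macrophages, and Col1a1 (-0.14) and Cxcl12 (1.59) for stroma and endothelium. At an unadjusted limma p under 0.05, beside 9.73% of all genes tested, there were 2 granulocyte and monocyte, 3 B-lineage, 2 mast cell and basophil, 1 T, NK and innate lymphoid and 1 stroma and endothelium markers, and 0 of the erythroid, plasma cell and macrophage markers.

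These extremes do not stand for their lists, whose medians moved when single libraries were left out. Of 11 plasma cell genes 9 were below 0, with a median of -0.22 that was -0.40 without wild-type replicate 3, -0.35 without PROSER1 KO replicate 3, -0.10 without PROSER1 KO replicate 2 and 0.03 without wild-type replicate 4. Of 11 T, NK and innate lymphoid genes 8 were below 0, with a median of -0.09 that ran from -0.30 without PROSER1 KO replicate 1 to 0.06 without PROSER1 KO replicate 2 and was also above 0, at 0.05, without wild-type replicate 1. Of 7 mast cell and basophil genes tested 5 were below 0, with a median of -0.28 that ran from -0.55 without PROSER1 KO replicate 3 to -0.05 without PROSER1 KO replicate 1. The sign of this median was not stable: by edgeR and by DESeq2 it was 0.08, with 4 of the 7 genes above 0 and 3 below. With a pseudocount of 0.1 the limma median was -0.63. Of 9 macrophage genes 7 were above 0, with a median of 0.26 that was 0.11 without wild-type replicate 4 or PROSER1 KO replicate 3. Of 7 stroma and endothelium genes 5 were above 0, with a median of 0.51 that ran from 0.26 without wild-type replicate 2 to 0.86 without PROSER1 KO replicate 1 and was 0.28 without PROSER1 KO replicate 3. The medians of the LSK and stem cell (-0.00), granulocyte and monocyte (0.00) and B-lineage (0.01) lists lay on both sides of 0 with a library left out, from -0.03 to 0.04, -0.26 to 0.20 and -0.22 to 0.31. The part of these cells in the values of the glycolysis genes was not tested.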

How the data were processed

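LSK RNA was measured in 4 libraries of wild-type and 3 of PROSER1 KO cells. The authors trimmed reads (Trimmomatic), mapped them to mm10 (STAR), counted read pairs per gene (featureCounts) and deposited normalized counts, a signal per gene divided by 1 DESeq2 size factor per library, per the submitters' processing notes and the methods; versions are not given. Dividing each library's values by their smallest step gave back read pairs (100% whole within 0.01), 33143619 to 45140743 per library. A count of 0 allows 3 read pairs (counting error only).

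Limma 3.58.1 in R 4.3.3 (eBayes with trend) was fitted to log2(normalized count + 1) for the 16251 genes averaging 10 or more. The added 1 can make fold changes of low genes smaller. They were not always smaller than those of other tools: Pdk4 had 0.73 by limma, 0.63 by edgeR and 0.64 by DESeq2. P-values were Benjamini-Hochberg adjusted over all genes tested, and calls needed an adjusted p-value under 0.05 and a fold over 1.5. The limma code was tested on simulated counts. DESeq2 1.42.0, edgeR 4.0.16 (quasi-likelihood), pseudocounts, filters, variance settings, TMM and quantile normalization, a block for the replicate number, leaving out each library, and leaving out antigen receptor variable genes were alternatives. Gene positions and exon lengths came from GENCODE M21 (GRCm38), while the methods and the file header name other GENCODE releases. Copies were found with blastn 2.17.0.

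Named in full were genes called by any tool, with an unadjusted limma p under 0.05 or without overlap of the groups, and the paralog most abundant per kb of each family; from other lists (remaining glycolysis, pentose phosphate, TCA cycle, regulators, hypoxia, germ cell paralogs, proliferation, cell markers), those with the largest and smallest fold change. The extremes of the erythroid markers are not reported here. Slc2a1, Pdk4, Gpi1 and Pklr were given per library, and Kit and Ly6a by group, after their values were seen. The glycolysis genes and lists were chosen with earlier results of these data known.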

Additional observations from a re-analysis of the deposited data

Results flagged for a closer look

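In the wild-type group, 68 values were checked for a library far from the other 3, by its gap to the nearest library as a share of the whole range against Dixon's 95% critical value. Chance gives about 1 in 20, and 5 values exceeded it. The 3 PROSER1 KO libraries were not checked in this way. Dlat was highest in wild-type replicate 1, with a gap of 0.832 of the range, and Mpc1 was lowest in the same library, with 0.89. Wild-type replicate 3 was highest in the summed level of the proliferation genes (0.87) and in their median deviation (0.891). The same library had the lowest share of Hk1 among hexokinases (0.933), at 45.2% beside 46.6% for the next. No cause was tested.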

How the results depend on the processing

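The count of glycolysis genes called was 0 in all 20 settings fitted and without a fold change minimum. Their median log2 fold change ranged from -0.046 to -0.002 when a library was left out, and the count of genes called over all genes from 23 to 42. That count was 42 with the main settings, 17 without the variance trend, 69 without antigen receptor variable genes, 80 when variances were estimated robustly and 165 with DESeq2, and the cause was not tested. DESeq2 called 1 gene of the pathway and marker lists (Mcpt8), a check added after seeing the data. Limma called 0 of them with all libraries and with each left out, and DESeq2 was not run with a library left out. Glycolysis genes without overlap numbered 1 with quantile normalization (2.86%, beside 9.78% of all genes) and 2 to 10 with a library left out (5.71% to 28.6%, beside 13.4% to 19.4%). Their share was above that of all genes only without PROSER1 KO replicate 2.

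With the length of the longest transcript, paralog shares in the wild-type and PROSER1 KO groups became 60.4% and 61.4% for Hk1, 36.1% and 37% for Pfkm, 98.7% and 98.8% for Aldoa, 99.5% and 99.4% for Eno1, 89.6% and 91.6% for Ldha, 47.8% and 46.3% for Pdk1, 90.2% and 88.1% for Slc16a1, and 61.7% in the wild-type group for Slc2a3, which follows from the lengths.

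With the replicate number as a block, 35 genes were called, and 9 of the 35 glycolysis genes were above 0 and 26 below. No PROSER1 KO library shares the number of wild-type replicate 4, so the block takes no fold change from that library. Its fold changes are therefore those without wild-type replicate 4 and are not a separate check. Deviations of same-numbered libraries correlated at 0.02, 0.06 and -0.11, beside -0.08 to 0.14 for libraries of different number. These values cannot decide whether the numbers pair the samples, because the pairs are few and the deviations within a group depend on each other. Signs of log2 fold changes near 0 turned without wild-type replicate 4, and so in the replicate block, for Slc2a3 (-0.001), Eno1 (-0.015), Ldha (-0.016) and Slc16a1 (0.005). With TMM the sign turned for Pfkfb3 (0.00). With a library left out they ranged from -0.001 to 0.055 for Slc2a3, -0.08 to 0.005 for Hk1, -0.029 to 0.024 for Pfkfb3, -0.015 to 0.054 for Eno1, -0.038 to 0.085 for Ldha and -0.118 to 0.066 for Slc16a1. Pdk4, Eno2, Pfkfb1 and Aldoc, whose intervals reached beyond 1.5-fold, had means of 24.7, 83.9, 146 and 306 normalized counts. Slc16a3, with a mean of 237, had an interval within 1.5-fold. The part of low counts in the width of these intervals was not tested.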
